A study of Mus musculus with 24 samples.

Results

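Kelch-like proteins are adaptors of ubiquitin ligases. Most carry an amino-terminal BTB domain, which binds the scaffold protein cullin 3, and a carboxy-terminal kelch propeller, which holds the substrate, so that the family member decides which protein the ligase marks with ubiquitin. Skeletal muscle is known for several members that are abundant there: Klhl40 and Klhl41 stabilise thin filament proteins in place of marking them for removal, and loss of either in people causes nemaline myopathy, a congenital muscle disease with rod-like protein deposits.

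The 10 genes described here (Klhl21, Klhl23, Klhl24, Klhl30, Klhl31, Klhl33, Klhl34, Klhl38, Klhl40 and Klhl41) are the rows of the count table, 47643 genes in all, that bear one of these symbols. They were selected on a family name and a known place in muscle with earlier results on these samples in view. Which measured values guided the choice was not given, and the difference between smoke and air counts is assumed to be among them. The difference of a member between the groups is therefore a description, without a test of its own. The samples were plantaris muscles, a fast muscle of the calf, from wild type C57BL/6 mice that breathed normal air (11 samples) or were exposed to tobacco smoke for 16 weeks (13 samples). Age, sex and housing of the mice, and whether each sample is a mouse of its own, were not given in the labels, so the spread between samples may in part be technical. RNA was read from the 3′ end (Lexogen QuantSeq), which gives a transcript reads near its poly(A) tail whatever its length.

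Counts per sample summed to between 2515697 and 4528845. The defining transcripts of skeletal muscle were present in every group: the 10 fibre markers, among them Acta1, Ckm and Myh4, summed to 121147 to 186411 CPM (read counts scaled to a common library total) in air and 130408 to 160612 CPM in smoke. Of the lists of other cell types, those of blood and of myelin and Schwann cells had genes called between the groups. All smoke samples stood before all air samples in the sample sheet, so that the order of the sheet and the exposure cannot be told apart.

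Sequence before the start sites is shown for 4 members whose levels are described below, because the series concerns the aryl hydrocarbon receptor, whose DNA core motif is GCGTG, and because muscle transcription factors of the MyoD family bind the E-box CAGCTG. Each line gives the 250 bases before a RefSeq start site in the build GRCm38.p6, plus strand, 5′ to 3′, with matches to GCGTG or CAGCTG on either strand in capitals. The Klhl23 window was chr2:69821691-69821940, that of Klhl21 chr4:152008641-152008890, that of Klhl40 chr9:121777357-121777606 and that of Klhl41 chr2:69669870-69670119.
Klhl23: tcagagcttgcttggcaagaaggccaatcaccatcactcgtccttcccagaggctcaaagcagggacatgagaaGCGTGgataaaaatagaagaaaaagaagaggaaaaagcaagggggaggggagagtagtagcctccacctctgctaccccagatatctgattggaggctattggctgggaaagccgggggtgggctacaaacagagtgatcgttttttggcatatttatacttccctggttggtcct
Klhl21: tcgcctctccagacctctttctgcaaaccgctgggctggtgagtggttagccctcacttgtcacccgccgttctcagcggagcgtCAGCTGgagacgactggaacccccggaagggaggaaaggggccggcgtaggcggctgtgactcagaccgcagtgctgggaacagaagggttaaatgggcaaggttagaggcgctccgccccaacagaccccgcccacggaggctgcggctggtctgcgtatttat
Klhl40: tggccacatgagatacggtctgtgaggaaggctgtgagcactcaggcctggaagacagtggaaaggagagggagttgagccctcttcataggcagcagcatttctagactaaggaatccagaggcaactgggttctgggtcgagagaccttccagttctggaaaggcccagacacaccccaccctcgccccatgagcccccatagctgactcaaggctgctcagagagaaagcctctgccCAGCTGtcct
Klhl41: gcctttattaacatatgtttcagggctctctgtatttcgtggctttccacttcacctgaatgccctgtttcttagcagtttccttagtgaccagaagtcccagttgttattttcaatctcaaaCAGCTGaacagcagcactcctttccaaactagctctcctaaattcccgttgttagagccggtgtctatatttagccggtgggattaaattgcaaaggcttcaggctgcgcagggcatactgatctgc

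RefSeq windows of 300 bases (250 before the start and 50 after it) matched 7 of the 10 members, with 10 windows between them. GCGTG was found 176 bases before this Klhl23 start and 3 times in another Klhl23 window farther into the gene. It was also found once in the window of Klhl31, 202 bases before its RefSeq start. The RefSeq starts of Klhl31 and Klhl21 lie inside the gene bounds given below. Part of the sequence before them is thus inside those genes, the Klhl31 match included. That core was also in 32.4% of 32851 windows of all genes, a share per window, while Klhl23 had several windows. A further Klhl23 window, starting at chr2:69822120, held 0 matches. The window with 3 matches was 75.0% G and C bases, beside a median of 52.7% over all windows. CAGCTG was found in 4 members, 127 bases before the start of Klhl41, 165 before that of Klhl21, 10 before that of Klhl40 and 90 before that of Klhl34, and in 16.3% of all windows. No member window held the MEF2 letters CTAAAAATA, the clock E-box CACGTG, the D-box letters TTATGTAA or TTACGTAA, or the FOXO letters TGTTTAC, which were in 0.517%, 7.15%, 1.06% and 3.65% of all windows on either strand. These matches describe letters only. Other forms of these sites, such as variants of the MEF2 letters, were not searched and may be present.

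The members spanned a wide range of levels. On the CPM scale of 3′-end counts, which are not divided by length since a transcript is primed once at its tail, the order was Klhl31, Klhl41, Klhl40, Klhl21, Klhl30, Klhl23, Klhl24, Klhl38, Klhl34 and Klhl33. Unannotated 3′ ends can lower the count of a gene, so the order is one of counts. Klhl31 alone gave 41.1% of the members' counts, Klhl41 21.2% and Klhl40 13.5%. Neighbours in this order differed in all 24 samples, except that Klhl21 exceeded Klhl30 in 13 of 24, Klhl38 exceeded Klhl34 in 22 of 24 and Klhl34 exceeded Klhl33 in 12 of 24. Over all 24 samples the ranges of neighbours overlapped in 6 of 9 pairs; they did not for Klhl31 and Klhl41, Klhl23 and Klhl24, and Klhl24 and Klhl38. The summed level of all 10 members was 1152 ± 66.6 CPM (SD, n = 11) in air and 1118 ± 75.7 CPM (SD, n = 13) in smoke.

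**Figure D1:**
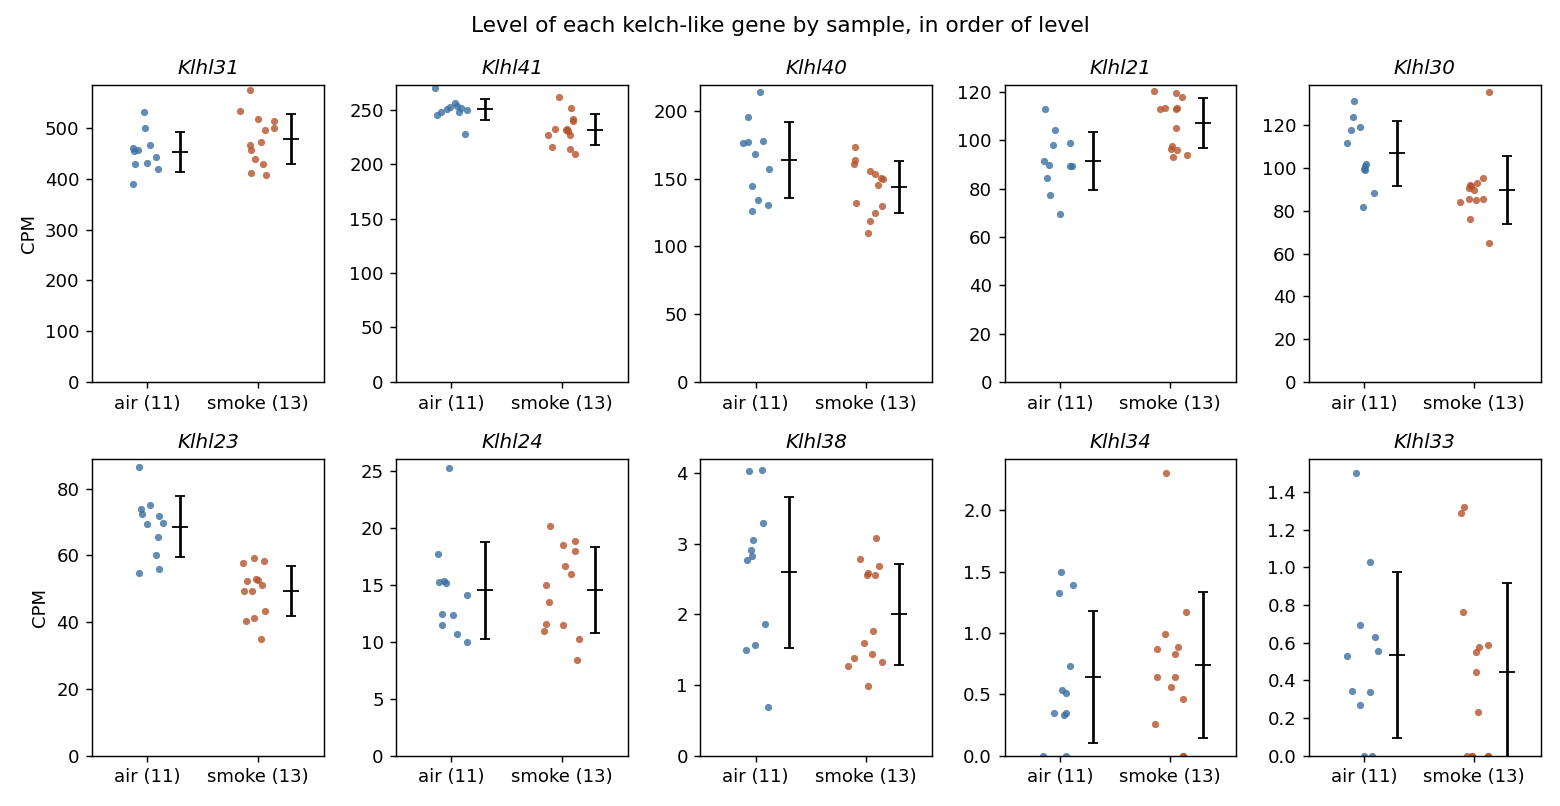
Level of each member in CPM (vertical axes, from 0) in each air (11) and smoke (13) sample, panels in order of mean level; points are samples, and the bar beside them is the mean with SD. Klhl23 lies lower in smoke, with 10 of 13 smoke samples under the lowest air sample, while the groups of the other members overlap more.

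Of the 10 members, 7 passed the filter on low counts. In a fit across all genes, 1.92% of 10159 genes were called for a smoke-air difference (adjusted p under 0.05, edgeR quasi-likelihood test, Benjamini-Hochberg), 0.728% as higher and 1.19% as lower under smoke, and 1 of the 7 members, Klhl23, was called, as lower. Since the members were listed with this contrast known, nothing is read from that count. The fitted log2 fold changes were negative in 4 of the 7 and positive in 3, with a median of -0.11. Over all genes tested the median was 0.0066 and 48.4% of values were negative, the background for the gene lists as well. In bulk tissue, fewer cells of a type and less RNA per cell cannot be told apart.

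Klhl23 (ENSMUSG00000042155, chromosome 2, 69821944 to 69836651, plus strand, GRCm38, protein coding, with no annotated overlap) was measured with 110 to 356 reads per sample. Its level in air ran from 54.6 CPM through a median of 69.7 to 86.4 CPM. In smoke it ran from 35.1 CPM through a median of 51.1 to 59.2 CPM. All 13 smoke samples lay below the air mean, 10 of them below every air sample, and 9 of 11 air samples lay above every smoke sample; the groups overlapped between 54.6 and 59.2 CPM. Means were 68.6 ± 9.23 CPM (SD, n = 11) in air and 49.5 ± 7.49 CPM (SD, n = 13) in smoke, and the fitted log2 fold change was -0.47 (SE 0.081), or 0.72 times the air level. Leaving out each sample in turn gave log2 fold changes from -0.50 to -0.44, with Klhl23 called in all 24 fits (edgeR adjusted p up to 0.00288).

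The myelin and Schwann cell markers moved with the groups. Of 10 such markers, all measured in these muscles and none at 0, 6 were called higher under smoke, and their summed level was 172 to 394 CPM in air and 250.4 to 1032 CPM in smoke. The smoke samples 2, 10 and 12 stood apart from the others, with sums of 1032, 746 and 772 CPM, and the next highest smoke sample had 494 CPM. Klhl23 in smoke was lowest in sample 2, the sample of the highest marker sum. Without these 3 samples the log2 fold change of Klhl23 was -0.41 (SE 0.080), and it was called (edgeR adjusted p = 0.00588). With the mean log2 level of the markers as a covariate over all samples it was -0.30 (SE 0.088), smaller by more than 1.5 times, and Klhl23 was not called (edgeR adjusted p = 0.107). The covariate without the 3 samples gave -0.31 (SE 0.094), again not called (edgeR adjusted p = 0.139).

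Within groups, Klhl23 was correlated with the myelin and the blood marker scores, 4 relations chosen after the data were seen, over which p-values were adjusted. In smoke (n = 13) Pearson's r with the myelin marker score was -0.67 (two-sided permutation p = 0.0118, adjusted p = 0.0471) and Spearman's rho was -0.38 (permutation p = 0.196, adjusted p = 0.453). Without the 2 samples farthest from the median score, r was -0.27, so that the relation rested on those samples. In air (n = 11) r was -0.50 (permutation p = 0.117, adjusted p = 0.234) and rho -0.40 (permutation p = 0.226, adjusted p = 0.453), with r at -0.13 without 2 samples.

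**Figure D2:**
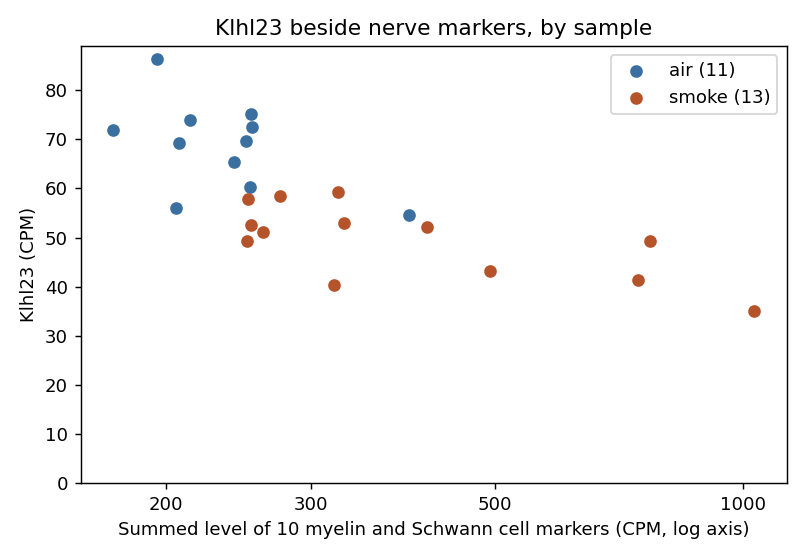
Klhl23 level (CPM, vertical axis from 0) against the summed level of 10 myelin and Schwann cell markers (CPM, log axis), 1 point per sample, air in blue and smoke in orange. Up to 394 CPM, where samples of both groups lie, most smoke points are under most air points, and the 3 smoke samples over 700 CPM have Klhl23 between 35.1 and 49.3 CPM.

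Blood markers moved as well. Of 5, all above 0, 3 were called lower under smoke, and their sum was 486 to 1444 CPM in air and 369 to 883 CPM in smoke. With the blood marker score as a covariate the log2 fold change of Klhl23 was -0.50 (SE 0.099), and it was called (edgeR adjusted p = 0.0105). Within groups r with the blood score was -0.20 in air (n = 11, permutation p = 0.556, adjusted p = 0.742) and -0.028 in smoke (n = 13, permutation p = 0.927, adjusted p = 0.927). For the same relations Spearman's rho was -0.17 (permutation p = 0.616, adjusted p = 0.616) and 0.20 (permutation p = 0.503, adjusted p = 0.616). Without the 2 farthest samples r turned to 0.13 in air and 0.32 in smoke. The other lists, of adipocytes, endothelium, fibroblasts, macrophages, satellite cells and smooth muscle, had no called gene in either direction under this test.

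Klhl23 and Klhl41 lie 137.7 kb apart on chromosome 2. Within 250 kb of Klhl23 the annotation holds 17 other genes, of which 8 were tested and 0 called. The closest tested gene upstream, Phospho2, was at 22.6 ± 2.78 CPM (SD, n = 11) in air and 20.3 ± 3.86 CPM (SD, n = 13) in smoke (log2 fold change -0.16 with SE 0.098, edgeR adjusted p = 0.475). The closest downstream, Ssb, an RNA-binding protein, was at a log2 fold change of 0.028 with an SE of 0.067 (edgeR adjusted p = 0.894). Ubr3, another ubiquitin ligase, had one of -0.13 (SE 0.052, edgeR adjusted p = 0.179). Gm13622, a processed pseudogene within the bounds of Ppig whose counts are uncertain, was at a log2 fold change of 0.33 with an SE of 0.15 (edgeR adjusted p = 0.279). At an unadjusted p under 0.05 the fit counted 3 of the 8 neighbours (Klhl41, Gm13622 and Ubr3) and 1575 of all 10159 genes.

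Klhl40 and Klhl41 are the members tied to the thin filament. Klhl41 (ENSMUSG00000075307, chromosome 2, 69670120 to 69684230, plus strand, no annotated overlap) was at 228 to 269.6 CPM in air with a median of 250.4, and at 209 to 261 CPM in smoke with a median of 231.4. It varied least of all tested members, with a coefficient of variation of 3.92% in air and 6.26% in smoke, and a biological coefficient of variation in the fit of 7.23% beside 11.9% for genes of its level. Means were 250.2 ± 9.82 CPM (SD, n = 11) and 231.7 ± 14.5 CPM (SD, n = 13), a log2 fold change of -0.11 (SE 0.044), not called. Of 13 smoke samples 11 lay below the air mean and 5 below every air sample.

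Klhl40 (ENSMUSG00000074001, chromosome 9, 121777607 to 121783818, plus strand, overlapping Gm47108 on the opposite strand) was at 126 to 214 CPM in air with a median of 169, and at 110.3 to 173 CPM in smoke with a median of 149.8. Use of strand in counting was not given in the sources used here. Reads from where Klhl40 and Gm47108 overlap may therefore not have been told apart, and the counts of Klhl40 are uncertain. The groups overlapped widely, though 12 of 13 smoke samples were below the air mean and 5 of 11 air samples above every smoke sample. Means were 164 ± 28.0 CPM (SD, n = 11) and 144 ± 19.0 CPM (SD, n = 13), a log2 fold change of -0.19 (SE 0.081), not called.

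Klhl31, a muscle-enriched member whose loss in mice causes a myopathy, had the highest level (ENSMUSG00000044938, chromosome 9, 77636500 to 77660127, plus strand, no annotated overlap). It was at 389 to 532 CPM in air with a median of 456, and at 408 to 575 CPM in smoke with a median of 472. The groups lay over each other, and 9 of 13 smoke samples were above the air mean. The log2 fold change was 0.079 (SE 0.057, 95% interval -0.034 to 0.19), not called.

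Klhl21, an adaptor known for its part in cell division, was the tested member with the highest positive value (ENSMUSG00000073700, chromosome 4, 152008803 to 152017680, plus strand, overlapping Gm9768 on the opposite strand, so that its counts are uncertain). It was at 69.6 to 113 CPM in air with a median of 89.9, and at 93.0 to 120.4 CPM in smoke with a median of 113. All 13 smoke samples were above the air mean, 6 of them above every air sample, and 7 of 11 air samples were below every smoke sample. Means were 91.4 ± 12.1 CPM (SD, n = 11) and 107 ± 10.4 CPM (SD, n = 13), a log2 fold change of 0.23 (SE 0.068). Klhl21 was not called by edgeR (adjusted p = 0.0658) but was called by DESeq2 (adjusted p = 0.0404). With the blood score as a covariate the value was 0.19 (SE 0.083), not called (edgeR adjusted p = 0.335). The myelin score gave 0.31 (SE 0.079), called (edgeR adjusted p = 0.0463). That score without the 3 samples of highest sum gave 0.32 (SE 0.085), not called (edgeR adjusted p = 0.0714). Leaving out each sample in turn gave 0.19 to 0.26, with Klhl21 called in 1 of 24 fits, the one without air sample 5 (edgeR adjusted p = 0.0350).

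Klhl30 (ENSMUSG00000026308, chromosome 1, 91351016 to 91362416, plus strand, no annotated overlap) was at 81.8 to 132 CPM in air with a median of 102, and at 65.0 to 135 CPM in smoke with a median of 90.0. The highest of all samples was smoke sample 11, and the other 12 smoke samples were below the air mean. Means were 107 ± 15.3 CPM (SD, n = 11) and 89.9 ± 15.9 CPM (SD, n = 13), a log2 fold change of -0.25 (SE 0.084). Klhl30 was not called (edgeR adjusted p = 0.118). Leaving out each sample in turn gave -0.31, without smoke sample 11, to -0.22. Klhl30 was called in 1 of these 24 fits, the one without smoke sample 11 (edgeR adjusted p = 0.0153). With the blood score as a covariate the value was -0.21 (SE 0.10) and with the myelin score -0.19 (SE 0.10).

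Klhl24, known for controlling the turnover of keratin filaments in skin, varied most among the tested members (ENSMUSG00000062901, chromosome 16, 20097542 to 20129221, plus strand, no annotated overlap). It was at 9.99 to 25.2 CPM in air with a median of 14.1, and at 8.42 to 20.1 CPM in smoke with a median of 15.0. Group means were alike, 14.5 ± 4.24 CPM (SD, n = 11) and 14.6 ± 3.79 CPM (SD, n = 13), and the log2 fold change was 0.0025 (SE 0.14, 95% interval -0.28 to 0.28), an interval that does not exclude a difference of that size. Its biological coefficient of variation was 20.6% beside 16.2% for genes of its level. The sign of its value turned without an expression filter (-0.0072) with the blood score as a covariate (-0.20) and in 13 of 24 fits that left out a sample (lowest -0.046). With the myelin score as a covariate it was 0.26 (SE 0.16). Klhl24 was called in none of these.

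**Figure D3:**
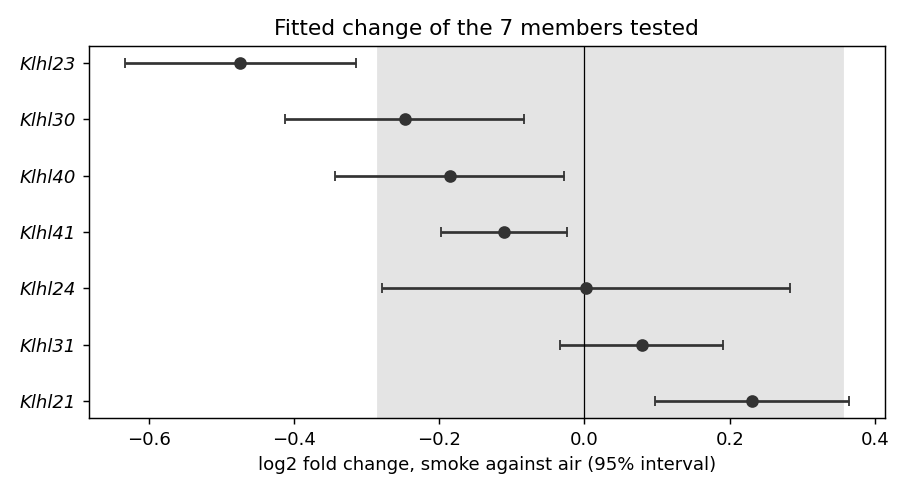
Fitted log2 fold change of smoke against air for the 7 members that passed the filter (points) with 95% intervals (bars); the grey band runs from the 5th to the 95th percentile of all 10159 genes tested, -0.28 to 0.36. Klhl23, at -0.47, is the only member whose point lies outside the band.

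Klhl38, Klhl34 and Klhl33 did not pass the filter. A floor of 3 reads corresponded to 0.665 to 1.15 CPM per sample. Klhl38 (ENSMUSG00000022357, chromosome 15, 58314573 to 58324169, minus strand, overlapping Gm15943 on the opposite strand) had 2 to 15 reads in air and 3 to 12 in smoke, or 2.60 ± 1.07 CPM (SD, n = 11) and 2.00 ± 0.715 CPM (SD, n = 13), with widely overlapping groups. Klhl34 (ENSMUSG00000047485, chromosome X, 157818435 to 157820369, plus strand) had 58 reads over all 24 samples and Klhl33 (ENSMUSG00000090799, chromosome 14, 50888582 to 50897507, minus strand) had 41, at most 6 in any sample of either gene. Both were at or near the floor in each group, so that differences between the groups were not detectable at this depth.

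Co-variation of the members was followed with each group centred on its own mean, so that the difference between the groups did not enter. As a description over 24 samples, Pearson's r of log2 CPM for the 21 pairs of tested members ran from -0.34 to 0.49, with a median of 0.13 and 13 positive. Over all pairs of tested genes the median was -0.0021 and 49.7% were positive. The highest values were those of Klhl31 with Klhl41 (0.49), Klhl23 with Klhl24 (0.48), Klhl21 with Klhl24 (0.41), Klhl31 with Klhl40 (0.39) and Klhl40 with Klhl41 (0.35). Klhl23 had its lowest value with Klhl40 (-0.34) and was near 0 with Klhl31 (-0.035). The members of the highest level thus had positive values among themselves, and Klhl23 had none above 0 with any of those 3. By group, r was 0.66 in air and 0.18 in smoke for Klhl31 with Klhl40, and 0.38 and 0.55 for Klhl31 with Klhl41. For Klhl40 with Klhl41 it was 0.24 and 0.46, and -0.26 and 0.074 without 2 samples.

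**Figure D4:**
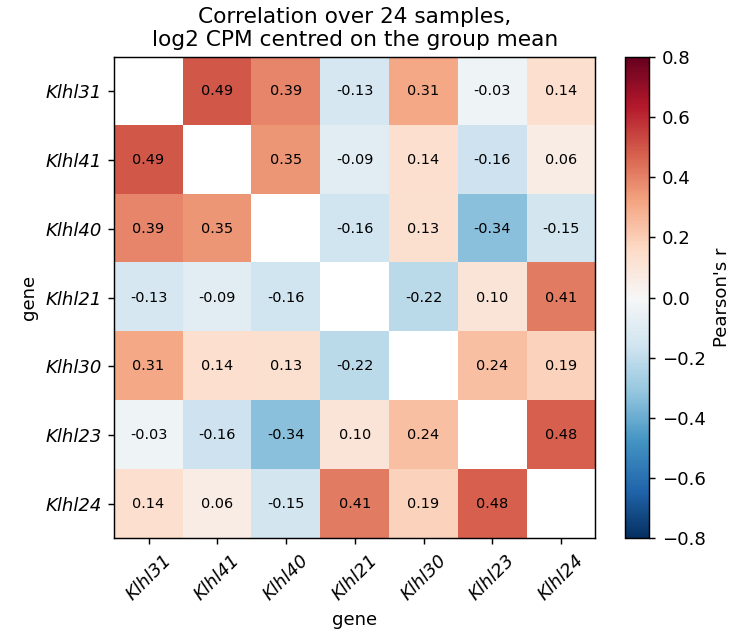
Pearson's r between the 7 tested members over 24 samples, on log2 CPM centred on the group mean (colour and number; both axes list the genes by level). Klhl31, Klhl41 and Klhl40 have positive values among themselves, from 0.35 to 0.49, of unlike size in the 2 groups. Klhl23 has its highest value, 0.48, with Klhl24.

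The genes most like Klhl23 by this measure were Esd (r 0.78), Copz2 (0.74), Ccdc47 (0.72), B4galt5 (0.72) and Bin1 (0.71), the last a membrane-shaping protein of the T-tubules. None of these 5 was called between the groups (edgeR adjusted p from 0.581 to 0.908). Those most like Klhl31, the member of highest level, were Smarca2 (0.75), Tbcel (0.74), Metap2 (0.71), Mypn (0.71), which encodes the sarcomere protein myopalladin, and Otx2 (0.69). They were taken as the highest of all 10159 genes and are given as descriptions.

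For 6 pairs of genes tied by known function, the correlation was tested within each group, 12 relations in all. After Benjamini-Hochberg adjustment none was under 0.05 (permutation p, adjusted, 0.232 to 0.892 for r and 0.461 to 0.993 for rho). Klhl41 with Neb, the thin filament ruler nebulin, gave r 0.69 in air (n = 11, permutation p = 0.0194, adjusted p = 0.232) and rho 0.52 (permutation p = 0.108, adjusted p = 0.461). Leaving out the 2 samples farthest from the median brought r to 0.12, so that it rested on them. In smoke (n = 13) the same pair gave r 0.47 (permutation p = 0.101, adjusted p = 0.429), rho 0.45 (permutation p = 0.129, adjusted p = 0.461) and 0.31 without 2 samples. Klhl40 with Klhl41 gave r 0.24 in air (permutation p = 0.4999, rho -0.064) and 0.46 in smoke (permutation p = 0.113, rho 0.49), and r was -0.26 and 0.074 without 2 samples. The remaining 8 relations, of Klhl40 with the actin nucleator Lmod3, Klhl24 with Klhl38, and each of these 2 with the atrophy ubiquitin ligase Fbxo32, had r from -0.096 to 0.47. Klhl38 entered them with at most 15 reads per sample.

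The ligase to which these adaptors dock was followed in a list of 26 genes, all tested: the scaffold Cul3, the ring protein Rbx1, factors that attach or remove the activator Nedd8, the cullin exchange factors Cand1 and Cand2, and ubiquitin-transferring enzymes such as Ube2d3 and Arih1. Of these, 0 were called higher and 1 lower, with 13 positive and 13 negative values and a median log2 fold change of -0.00056. The called gene was Cops9, a small subunit of the COP9 signalosome, which strips Nedd8 from cullins. Cops9 was at 256 ± 25.4 CPM (SD, n = 11) in air and 218 ± 20.1 CPM (SD, n = 13) in smoke (log2 fold change -0.23, SE 0.057, edgeR adjusted p = 0.0262), and 12 of 13 smoke samples were under the air mean. Cul3 was at 67.0 ± 15.0 and 70.5 ± 14.0 CPM (log2 fold change 0.069, SE 0.11, edgeR adjusted p = 0.825) and Rbx1 at 66.9 ± 6.46 and 69.7 ± 4.79 CPM (0.059, edgeR adjusted p = 0.696). With the blood score as a covariate the log2 fold change of Cops9 was -0.19 (SE 0.070, edgeR adjusted p = 0.222), and with the myelin score -0.24 (SE 0.072, edgeR adjusted p = 0.117), of about the same size with a larger SE and not called. Cops9 was also not called without air sample 5 (-0.22, edgeR adjusted p = 0.0512).

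Of 18 thin filament genes and partners, all tested, 0 were called higher and 1 lower, with 14 negative values and a median of -0.082. The called gene was Lmod2, a leiomodin that nucleates actin, at 75.3 ± 23.6 CPM (SD, n = 11) in air and 52.9 ± 11.2 CPM (SD, n = 13) in smoke (log2 fold change -0.51, SE 0.13, edgeR adjusted p = 0.0359), and 13 of 13 smoke samples were under the air mean. Lmod3, the leiomodin that Klhl40 is known to stabilise, was at 135 ± 14.3 and 123 ± 11.1 CPM (log2 fold change -0.13, SE 0.061, edgeR adjusted p = 0.284). Neb was at 1267 ± 162 and 1290 ± 193 CPM (log2 fold change 0.026, SE 0.074, edgeR adjusted p = 0.914). The filamin gene Flnc, at -0.26 (SE 0.093, edgeR adjusted p = 0.133), was not called, except in the fit that left out smoke sample 11. Alternatives that ended the call of Lmod2 left its log2 fold change at a similar or larger size, -0.48 under limma-voom (adjusted p = 0.0711), -0.55 with the blood score (SE 0.16, edgeR adjusted p = 0.105), and -0.61 with the myelin score (SE 0.16, edgeR adjusted p = 0.0714), or -0.57 with that score and without the 3 samples of highest myelin sum (edgeR adjusted p = 0.136). It also lost its call when any of 12 single samples was left out (air 3, 4, 5, 6, 7 or 10, or smoke 3, 5, 6, 7, 8 or 12), and over all 24 such fits its log2 fold change ran from -0.59 to -0.43 with edgeR adjusted p up to 0.0861.

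Of 42 other genes of the kelch family, 41 were in the table and 22 tested, and 0 were called by edgeR, 0 by DESeq2 and 0 by limma-voom. Beside 1575 of all 10159 genes, 1 of these 22 had an unadjusted edgeR p under 0.05. The median log2 fold change was -0.042, with 10 positive and 12 negative values. The smallest p was that of Kbtbd2, at 31.2 ± 5.03 CPM (SD, n = 11) in air and 35.7 ± 5.85 CPM (SD, n = 13) in smoke (log2 fold change 0.19, SE 0.091, edgeR adjusted p = 0.301). Kbtbd2 overlaps Gm10209 on the opposite strand.

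Of 26 tested genes of other ubiquitin ligases of muscle, 0 were called higher and 1 lower, with 19 negative values and a median of -0.080. That gene was Asb2, an adaptor of cullin 5 ligases, at 1600 ± 203 CPM (SD, n = 11) in air and 1260 ± 153 CPM (SD, n = 13) in smoke (log2 fold change -0.34, SE 0.066, edgeR adjusted p = 0.00335), with 12 of 13 smoke samples under the air mean; it overlaps Gm15523 on the opposite strand. Trim63, an atrophy ubiquitin ligase like Fbxo32, was at 174 ± 39.9 CPM (SD, n = 11) in air and 138 ± 20.8 CPM (SD, n = 13) in smoke, with 13 of 13 smoke samples under the air mean. Its log2 fold change of -0.33 (SE 0.095) was not called by edgeR (adjusted p = 0.0568), but Trim63 was called by DESeq2, without the expression filter and in 6 of 24 fits that left out a sample. With the myelin score as a covariate it was -0.22 (SE 0.11, edgeR adjusted p = 0.468), and with that score and without the 3 samples of highest myelin sum -0.18 (SE 0.12, edgeR adjusted p = 0.627), both smaller by more than 1.5 times and not called. Fbxo32 was at 574 ± 105 and 560.0 ± 76.8 CPM (log2 fold change -0.036, SE 0.082, edgeR adjusted p = 0.891). Of 14 tested upstream regulators, 1 was called higher and 0 lower, with 12 negative values and a median of -0.091. The called gene was Mrtfa, a coactivator of serum response factor, at 29.4 ± 4.63 CPM (SD, n = 11) in air and 36.7 ± 5.53 CPM (SD, n = 13) in smoke (log2 fold change 0.33, SE 0.090, edgeR adjusted p = 0.0494), and 12 of 13 smoke samples exceeded the air mean. Mrtfa overlaps Gm49522 on the same strand and Sgsm3 and Gm25131 on the opposite strand, so that its counts are uncertain. With the blood score its log2 fold change was 0.31 (SE 0.11, edgeR adjusted p = 0.223) and with the myelin score 0.37 (SE 0.11, edgeR adjusted p = 0.105), of about the same size and not called. It was also not called without the expression filter (0.32, edgeR adjusted p = 0.0680) or without the 3 samples of highest myelin sum (0.34, edgeR adjusted p = 0.0620). When single samples were left out it kept its call in 5 of 24 fits (without air 2, 7 or 11, or smoke 6 or 10), with log2 fold changes from 0.29 to 0.35 and edgeR adjusted p up to 0.0928. Myod1, a master regulator of the muscle lineage, was at -0.37 (SE 0.14, edgeR adjusted p = 0.190).

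**Figure D5:**
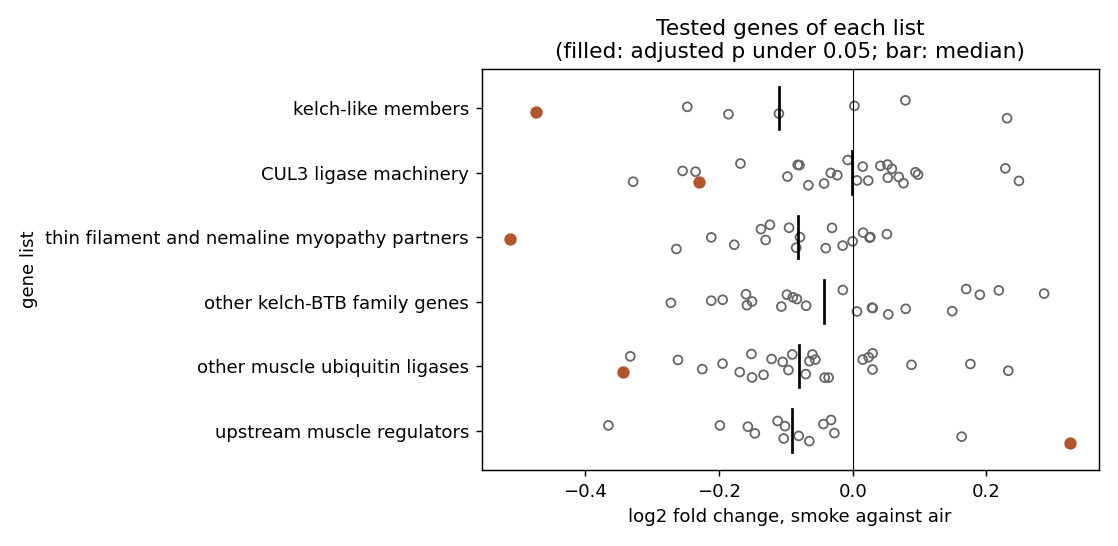
Log2 fold change of smoke against air (horizontal axis) of each tested gene in the members and in 5 lists (rows); filled points are genes called at an adjusted p under 0.05, and the bar is the median of the list. Each row holds at most 1 filled point, and the medians lie between -0.11 and -0.00056.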

How the data were processed

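The authors deposited unnormalised read counts by Ensembl gene ID, each sample in a column of its own, per the file headers. Per the submitters' processing notes, STAR, DESeq2 and the build mm9 were used, with no role given; the counting tool, annotation, strand setting and use of molecular identifiers were not given in the sources used here. Groups and replicate numbers came from the titles. Symbols came from GENCODE M21 (GRCm38), which held 47224 IDs (99.1%); coordinates are from it and locate genes only.

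Genes were kept by filterByExpr (minimum count 10), scaled by TMM and tested with edgeR 4.0.16 (glmQLFit, glmQLFTest) in R 4.3.3 on all 24 samples without covariates, with Benjamini-Hochberg adjustment and calls under 0.05. Log2 CPM used a prior count of 2, and correlations 100000 permutations. The procedure was tested on simulated data. Limma 3.58.1 and DESeq2 1.42.0 were among the alternatives. Intervals and floors cover counting error or the fit only.

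The members, gene lists and pairs were chosen with earlier results of these data known. All 10 members were named; of each list, every called gene or else that of smallest p, and for Klhl23 and the member of highest level the 5 most alike genes. Phospho2, Ssb, Ubr3, Gm13622, Cul3, Rbx1, Flnc, Trim63 and Myod1 were added after their values were seen.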

Additional observations from a re-analysis of the deposited data

How the results depend on the processing

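Scaling, filter and model. Against 195 genes called (74 higher, 121 lower), RLE scaling gave 201, no expression filter 201, limma-voom 175 and removal of the 10 most abundant genes 206, each with Klhl23 as the member called. DESeq2 gave 323 (121 higher, 202 lower) with 2 members, Klhl21 and Klhl23, and 2 of the other muscle ligases, Asb2 and Trim63. Without the filter, the same 2 muscle ligases and 0 upstream regulators were called, and limma-voom called 0 thin filament genes. The cause of these differences was not tested. The value of Klhl24 reversed to -0.0072 without the filter and to -0.20 with the blood score, and was 0.26 with the myelin score, 0.22 with that score without 3 samples and 0.13 without the 3; left-out samples moved it between -0.046 and 0.11.

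The replicate numbers of the titles are shared by both groups, but same-numbered samples, 11 pairs, had a mean r of -0.0059 between their deviations from the group mean, and 4 of the 11 exceeded 0.1. With the replicate number as a block, 138 genes were called, 110 of them shared, with Klhl23 the member called (log2 fold change -0.49) and 0 genes of the CUL3, thin filament and upstream regulator lists; Cops9 was at -0.24, Lmod2 at -0.48 and Mrtfa at 0.29.

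With the blood score in the model, 56 genes were called (18 higher, 38 lower), and with the myelin score 74 (22 higher, 52 lower), each with 0 genes of the CUL3, thin filament and upstream lists; under the myelin score the member called was Klhl21. Without the 3 samples of highest myelin sum, chosen after the data were seen, 146 genes were called, 42 of them higher, with 0 upstream regulators. The myelin score without those samples gave 54 genes (13 higher, 41 lower), 0 members and 0 genes of the CUL3, thin filament and upstream lists.

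Leaving out each of the 24 samples gave 141 to 254 genes (47 to 103 higher, 92 to 163 lower), 1 to 2 members, 0 to 2 CUL3 genes, 0 to 2 thin filament genes, 1 to 2 other muscle ligases, 0 to 1 upstream regulators and 0 to 0 other kelch genes. Without the 2 samples farthest from the median, r reversed to -0.26 for Klhl40 with Klhl41 in air, to -0.12 for Klhl40 with Lmod3 in air and to 0.22 for Klhl24 with Klhl38 in smoke; r of Klhl23 with the blood score reversed to 0.13 in air and 0.32 in smoke. Depth limits Klhl33, Klhl34 and Klhl38, with at most 15 reads in a sample.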
